A study of Homo sapiens with 22 samples.

Results

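The cadherin and protocadherin genes of the array were taken as every gene with an element of exactly 1 symbol that is PCDH with any ending, or CDH followed directly by digits. This gave 83 of the 15461 named genes, measured by 93 of the 32878 elements: 20 cadherins, 11 non-clustered protocadherins, and 52 clustered protocadherins, of which 15 lie in the alpha, 16 in the beta and 21 in the gamma cluster. A single element was present for 73 genes, and 10 genes had 2 elements, of which the brighter one over all 22 arrays was used. One further element was named for 15 alpha cluster genes at once and another for PCDH11X and PCDH11Y together, and neither stood for a gene. CDH13 and PCDH17 had no element named here.

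The arrays came from 11 established B-cell lymphoma lines, each grown untreated and with 5-aza-2'-deoxycytidine (aza, an inhibitor of DNA methylation) and trichostatin A (TSA, an inhibitor of histone deacetylases). Aza was given at 1 µM over 72 h with an addition every 24 h, TSA at 0.5 µM for the last 12 h, and the 2 agents were not used singly. Raji, BL41 and Ramos are Burkitt lymphoma lines (BL), HLY-1, Ocily3 and Ocily10 lines of diffuse large B-cell lymphoma (DLBCL) of the activated B-cell type (ABC), Sudhl4 and Sudhl6 DLBCL lines of the germinal centre type (GCB), and K422, SC-1 and ROS-50 follicular lymphoma lines (FL). Each line had 1 culture per condition, so that the lines are the replicates and p-values measure the spread between lines. The medium was IMDM plus human plasma for Ocily3 and Ocily10, and RPMI plus fetal calf serum for the remaining 9 lines.

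Cadherins are calcium-dependent adhesion proteins whose cytoplasmic tails bind catenins, which link them to actin. Protocadherins share the extracellular cadherin repeats but not the classical catenin-binding tail. The clustered protocadherins lie in 3 tandem arrays on chromosome 5, where each variable exon has its own promoter. Promoter choice there depends on CTCF, cohesin and DNA methylation, and neurons use the resulting combinations for self-recognition. Variable exons of the alpha and of the gamma cluster are spliced to shared constant exons, and genes within a cluster are close copies, so an element may also have read neighbouring copies.

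The promoters of 4 members are printed because PCDH8 rose and PCDHA10 fell after treatment, and because the levels of PCDHAC2 and PCDHB5 separated the lines. Of the members that rose or fell, only PCDH8 and PCDHA10 had a promoter at hand. CDH1, CDH15, CDH16, PCDH20 and PCDHB11 had none, so the CpG counts of PCDH8 and PCDHA10 are not a chosen contrast. Each is a window of 300 bases around a RefSeq transcription start (build GRCh38.p14), of which the last 50 follow the start, printed 5′ to 3′ on the gene's strand, with every CpG in capitals. The window of PCDH8, at chr13:52848591-52848890 on the minus strand, holds 20 CpG. That of PCDHA10, at chr5:140855647-140855946 on the plus strand, holds 8, that of PCDHAC2, at chr5:140966226-140966525 on the plus strand, 15, and that of PCDHB5, at chr5:141134956-141135255 on the plus strand, 6.
PCDH8: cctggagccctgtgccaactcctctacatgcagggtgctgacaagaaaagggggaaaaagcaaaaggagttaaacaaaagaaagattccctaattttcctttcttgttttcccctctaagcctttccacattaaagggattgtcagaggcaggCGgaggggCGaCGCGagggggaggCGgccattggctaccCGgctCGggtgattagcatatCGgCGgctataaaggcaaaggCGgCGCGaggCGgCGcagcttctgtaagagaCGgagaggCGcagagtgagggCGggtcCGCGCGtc
PCDHA10: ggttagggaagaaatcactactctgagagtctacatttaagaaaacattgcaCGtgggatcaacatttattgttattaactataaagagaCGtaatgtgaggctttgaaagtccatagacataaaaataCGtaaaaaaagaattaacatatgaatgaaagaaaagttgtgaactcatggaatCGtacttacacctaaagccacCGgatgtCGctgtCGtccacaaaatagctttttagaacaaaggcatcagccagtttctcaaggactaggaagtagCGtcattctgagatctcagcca
PCDHAC2: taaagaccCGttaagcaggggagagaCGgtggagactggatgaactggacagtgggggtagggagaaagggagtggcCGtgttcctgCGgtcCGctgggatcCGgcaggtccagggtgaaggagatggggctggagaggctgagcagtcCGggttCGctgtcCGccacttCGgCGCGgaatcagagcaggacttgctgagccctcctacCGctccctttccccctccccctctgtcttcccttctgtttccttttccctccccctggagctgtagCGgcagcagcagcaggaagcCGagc
PCDHB5: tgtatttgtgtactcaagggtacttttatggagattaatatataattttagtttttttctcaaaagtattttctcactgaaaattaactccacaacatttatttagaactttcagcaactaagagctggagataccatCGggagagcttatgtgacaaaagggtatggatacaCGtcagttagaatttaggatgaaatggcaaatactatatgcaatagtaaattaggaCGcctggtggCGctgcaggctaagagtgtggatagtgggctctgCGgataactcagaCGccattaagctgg

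RefSeq promoters were at hand for 65 of the 83 genes, some of them with several, but for only 10 of the 20 cadherins. The median number of CpG per window was 7.0 in the alpha cluster, 7.5 in the beta cluster and 10.5 in the gamma cluster, against 12.5 for the non-clustered protocadherins, 8.5 for the cadherins and 14.0 for all 35116 promoters of the table. CGCT, the core of a conserved element of clustered protocadherin promoters, was found on either strand in 92.3% of the alpha, 100% of the beta and 100% of the gamma promoters, and in 70.0% of all promoters. Of the 4 windows printed it was in those of PCDHA10, PCDHAC2 and PCDHB5. AGGNGGC, a part of the CTCF core motif, was found on either strand in 7.69%, 21.4% and 0.00% of the alpha, beta and gamma promoters and in 35.9% of all promoters. Neither motif contains the other, and a match describes letters only.

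Most of these genes were dim in untreated lymphoma cells. Levels are log2 signals after quantile normalization, and every array had the same median (10.18), which served as the mark of a clear signal. The mean untreated level lay above this median for 13 of the 83 genes. No untreated array was above it for 33 genes, and none of the 22 arrays for 19. Of all 15461 genes this held for 2594 and 1498. Only CDH15, CDH24, PCDHA10, PCDHGC5 and PCDHGA7 were above it in all 11 untreated lines, as were 6166 of all 15461 genes. For each of the 5 the lowest untreated line still lay above 10.6, the lowest being PCDHGA7 at 10.65 in Sudhl6. PCDHA5 was next, above the median in 10 of 11 untreated lines. Of 7 B cell markers 6 had a mean untreated level above the array median, as 57.6% of all genes did, CD79B among them at 16.45 ± 1.41 (SD, n = 11). PAX5 was the exception at 9.05 ± 0.87, above the median in 2 of 11 lines.

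After aza/TSA 5 members rose and 2 fell (limma with cell line as a block, two-sided, adjusted p under 0.05 over all elements), and 76 did not pass. CDH1, PCDH20, PCDH8, CDH15 and CDH16 rose, and PCDHB11 and PCDHA10 fell. These are 6.02% and 2.41% of the members, where 15.1% of all genes rose and 15.2% fell. Since most members were dim, genes with a mean level below the array median give the nearer background: 5.46% of them rose and 4.53% fell, against 4 and 1 of the 72 members of this kind (5.56% and 1.39%). The shares that rose were thus close to each other. At an unadjusted p under 0.05 there were 8 members higher and 5 lower (9.64% and 6.02%), against 20.3% and 20.8% of all genes and 9.93% and 9.68% of the dim genes. The median difference over the members was -0.05, over all genes -0.01, and 67 of 83 members (80.7%) differed by less than 0.5 on the log2 scale, as did 59.7% of all genes and 73.3% of the dim genes. The arrays measured whole cultures, so more expressing cells and more RNA per cell cannot be told apart.

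**Figure D1:**
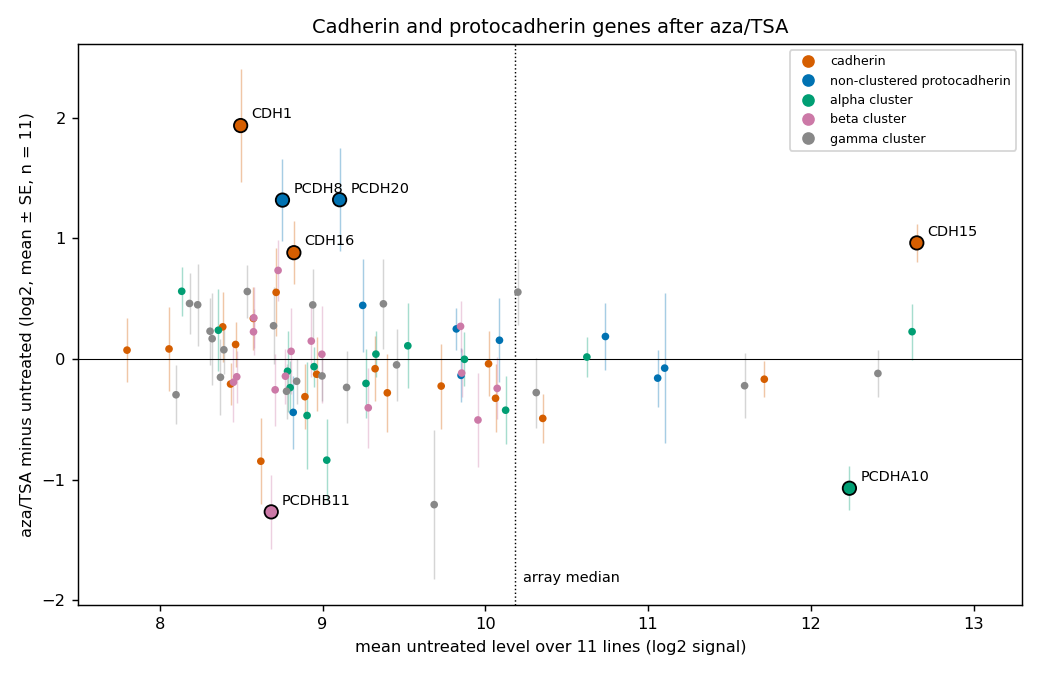
Log2 difference between aza/TSA and untreated (mean of 11 lines, bars ± SE) against the mean untreated level (log2 signal), 1 point per member except PCDH11Y, coloured by class; large outlined points passed the limma test. CDH1 lies highest at 1.94 and PCDHB11 lowest at -1.27, and most points lie left of the dotted array median and near 0.

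The 3 cadherins that rose are best known from tissues other than blood. CDH1 encodes E-cadherin, the cadherin of epithelial cell junctions. Its untreated level ranged from 6.97 in HLY-1 over a median of 8.15 to 11.41 in Ocily3, and its treated level from 8.57 in K422 over 9.91 to 12.92 in BL41. Ocily3 was the only untreated line above the array median, and 5 treated lines were (Ocily3, Ramos, Raji, HLY-1 and BL41). CDH1 was higher in 11 of 11 lines, by 1.94 ± 0.47 (SE, n = 11) or 3.83-fold, with adjusted p = 0.00718. The size varied widely between lines, from 0.12 in Ocily10 and 0.23 in K422 to 4.09 in HLY-1 and 5.02 in BL41. By type the mean difference was 4.01 in BL, 1.75 in DLBCL ABC, 1.23 in DLBCL GCB and 0.52 in FL, but limma's F-test between types did not pass (adjusted p = 0.724, unadjusted 0.0140).

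CDH15, the M-cadherin of muscle, had the smallest SE of the members that rose. Untreated levels lay between 12.15 and 13.12 (median 12.68) and treated levels between 13.07 and 14.37 (median 13.47). It rose in 11 of 11 lines, by 0.96 ± 0.16 (SE) or 1.95-fold (adjusted p = 5.0e-04), although the 2 groups overlapped narrowly. The smallest differences were 0.19 in K422 and 0.41 in Raji and the largest 1.68 in Ramos. CDH16, a cadherin of the kidney, ranged from 8.17 to 9.99 untreated (median 8.66) and from 8.61 to 11.98 treated (median 9.47). It rose by 0.88 ± 0.26 (adjusted p = 0.0239) in 10 of 11 lines, with Sudhl4 at 3.31 and all other lines at most 1.39. It did not pass without Ocily3 (0.83, adjusted p = 0.0513), with values floored at the 25th percentile of the signals (0.73, 0.0737), in the 9 lines in RPMI (0.82, 0.0850) or without the block (0.88, 0.108).

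Among the non-clustered protocadherins PCDH8 and PCDH20 rose, both studied as targets of promoter methylation in carcinomas. PCDH8, also called paraxial protocadherin, was above the array median in no untreated line (7.58 to 9.57, median 8.84) and in 4 treated lines, namely Raji at 13.33, Ocily3 at 11.62, K422 at 11.49 and SC-1 at 10.59. It rose by 1.32 ± 0.34 (SE) or 2.49-fold in 10 of 11 lines (adjusted p = 0.0105). Raji moved most, by 3.97, while Ramos and Sudhl4 stayed at -0.05 and 0.07. In the 8 lines without Sudhl4, Ocily10 and HLY-1 the difference was 1.59, and 0.59 within those 3 lines. PCDH20 ranged from 8.14 to 10.84 untreated (median 8.66) and from 8.95 to 12.40 treated (median 10.20), and differed by 1.32 ± 0.43 (adjusted p = 0.0364). It was higher in 9 lines, by up to 3.30 in Ramos and 3.17 in HLY-1, and lower in SC-1 (-1.01) and ROS-50 (-1.40), the 2 lines in which it had been highest. This call lay close to the threshold. On leaving out any 1 of 8 lines (Ocily3, Ramos, K422, Raji, Sudhl4, Ocily10, HLY-1 or BL41) the difference was between 1.12 and 1.37 with adjusted p between 0.0514 and 0.0827.

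PCDH10, another gene known for promoter methylation, gave opposite pictures from its 2 elements. The brighter element was at 11.06 ± 1.03 (SD, n = 11) untreated and 10.90 ± 1.62 treated, a difference of -0.16 with adjusted p = 0.695. The dimmer element had a median of 8.30 untreated, with HLY-1 alone above the array median at 15.49, and a median of 10.71 treated. It was higher in 9 of 11 lines, by 1.62 ± 0.47 (SE) or 3.08-fold (adjusted p = 0.0202). HLY-1 dropped to 13.69 and Ocily10 from 9.12 to 7.79, while K422 gained 3.89 and ROS-50 3.22. The differences of the 2 elements correlated at r = -0.46 over the 11 lines, given as a description. Which of the 2 follows the gene is not known from the files. For CDH24 too only the dimmer element passed, but both were lower, the brighter at -0.17 (adjusted p = 0.480) and the dimmer at -0.76 (adjusted p = 0.0149). Of the 10 genes with 2 elements, 4 had differences of opposite sign and none had both elements called.

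**Figure D2:**
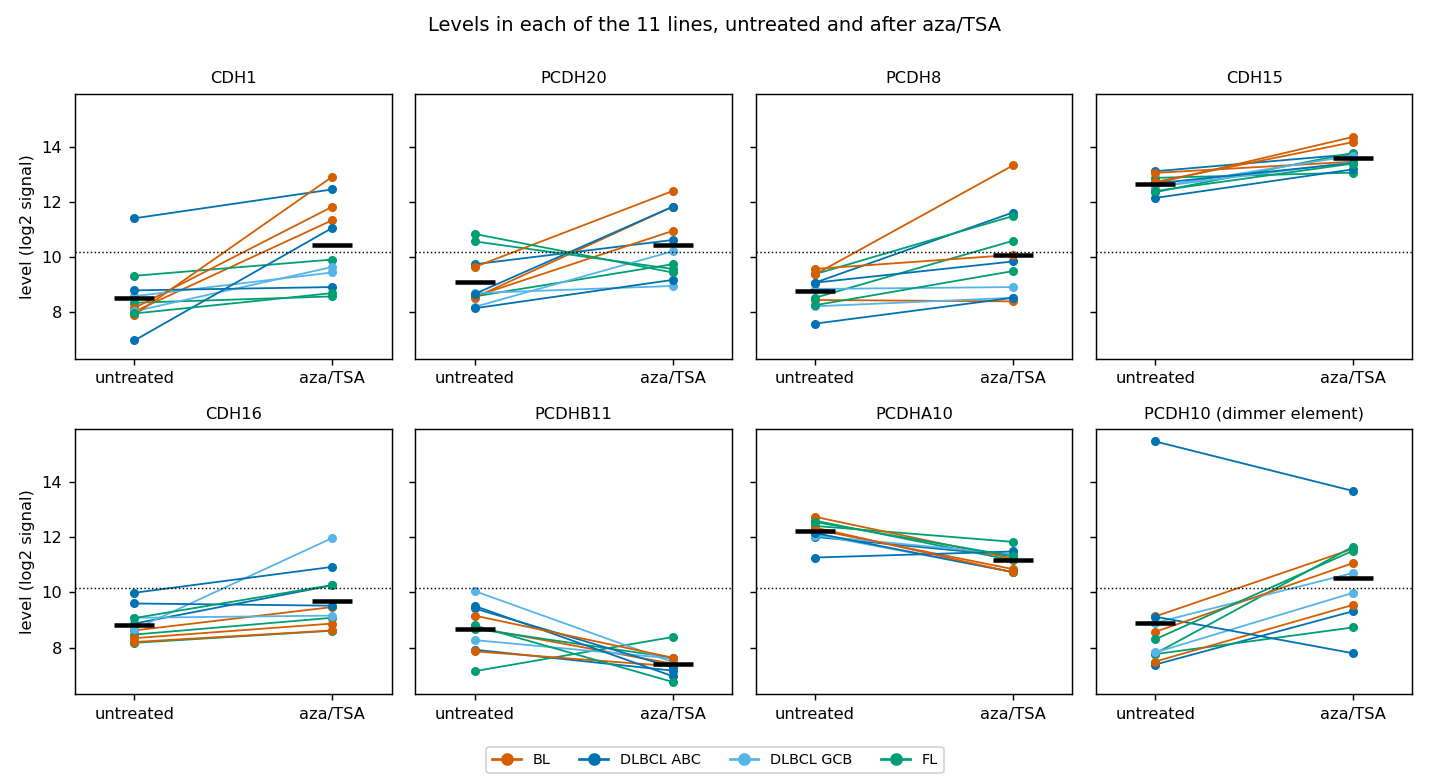
Level (log2 signal) of the 7 members that passed the test and of the dimmer PCDH10 element in each of the 11 lines, untreated and after aza/TSA; lines join the 2 arrays of a cell line, colours are lymphoma types, black bars are means and the dotted line is the array median. CDH15 and PCDHA10 moved by similar amounts in most lines, whereas CDH1 and PCDH8 moved strongly in a few.

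CDH2 and PCDH9, the other 2 genes of this kind, did not pass. CDH2, the N-cadherin of neural and mesenchymal cells, stayed below the array median in every line on both arrays, at 8.96 ± 0.58 (SD) untreated and 8.84 ± 0.63 treated, with Ocily3 the largest difference at 2.41. PCDH9, expressed in the nervous system, spanned 8.92 in ROS-50 to 15.94 in Sudhl4 when untreated. Its differences ran in both directions, from -4.45 in HLY-1 (13.71 to 9.26) to 3.40 in Ocily10 (9.42 to 12.82), with 4 lines at least 2-fold higher and 4 at least 2-fold lower. They averaged to -0.07 ± 0.62 (SE, adjusted p = 0.952), so the mean hides large changes within single lines, each of which rests on 1 pair of arrays.

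None of the 52 clustered protocadherins rose, and 2 fell (3.85%), where 15.1% and 15.2% of all genes did. Of the genes below the array median 5.46% rose and 4.53% fell. That background does not cover the 7 clustered genes with an untreated mean above the median, PCDHA10 among them. Of genes with a mean at or above it 44.9% were called in either direction. Their median difference was -0.08. PCDHA10, an alpha cluster gene, had a signal above the array median in all lines, untreated and treated. Its level ran from 11.27 in Ocily10 over a median of 12.29 to 12.75 in Raji untreated, and from 10.73 over 11.23 to 11.84 treated. It fell by 1.07 ± 0.18 (SE) or 2.10-fold in 10 of 11 lines (adjusted p = 6.1e-04). Ocily10, which started lowest, was the exception at 0.22. PCDHB11, of the beta cluster, was below the array median on all 22 arrays, ranging from 7.14 to 10.05 untreated (median 8.73) and from 6.75 to 8.38 treated (median 7.41). It fell by 1.27 ± 0.31 (adjusted p = 0.00743) in 10 of 11 lines, K422 being higher by 1.24. With values floored at the 25th percentile of the signals the difference shrank to -0.30 (adjusted p = 0.160), and without Sudhl4, Ocily10 and HLY-1 the adjusted p was 0.0578.

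The clustered genes with the clearest untreated signal besides PCDHA10 did not pass. PCDHGC5 was at 12.41 ± 0.46 (SD) untreated and 12.29 ± 0.51 treated (adjusted p = 0.725), PCDHGA7 at 11.59 ± 0.51 and 11.37 ± 0.80 (adjusted p = 0.623), and PCDHA5 at 10.62 ± 0.42 and 10.64 ± 0.47 (adjusted p = 0.959). The groups overlapped for all 3 genes. The largest differences that did not pass were -0.84 ± 0.34 (SE) for PCDHA8 (adjusted p = 0.0960), 0.74 ± 0.26 for PCDHB14 (adjusted p = 0.0530) and -1.21 ± 0.62 for PCDHGC3 (adjusted p = 0.192). PCDHA8 was lower in 9 lines and higher in Ocily3 and Ocily10, the 2 lines grown in IMDM. In the 9 lines in RPMI its difference was -1.33 with adjusted p = 9.2e-04. These lines leave out both that were higher, so the smaller p adds no support for a fall or for a part of the medium. PCDHA8 was below the array median on all 22 arrays. PCDHB14 was higher in 8 lines and lower in Sudhl6, Sudhl4 and Ocily10. It passed on leaving out any 1 of these 3 (adjusted p = 0.0330, 0.0453 and 0.0165). Dropping a line that went the other way raises the mean difference in itself, so these values add no support for a rise. PCDHGC3 owed most of its mean to SC-1, where a level of 15.40 untreated stood against 7.34 treated, while its other untreated lines lay between 7.89 and 10.53. Outside the clusters, CDH19 (-0.85 ± 0.36, adjusted p = 0.110) and PCDH1 (0.44 ± 0.39, adjusted p = 0.467) had the largest differences of their classes without passing. The element named for 15 alpha cluster genes was at 8.58 ± 0.51 (SD) untreated and 8.34 ± 0.42 treated (adjusted p = 0.417).

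**Figure D3:**
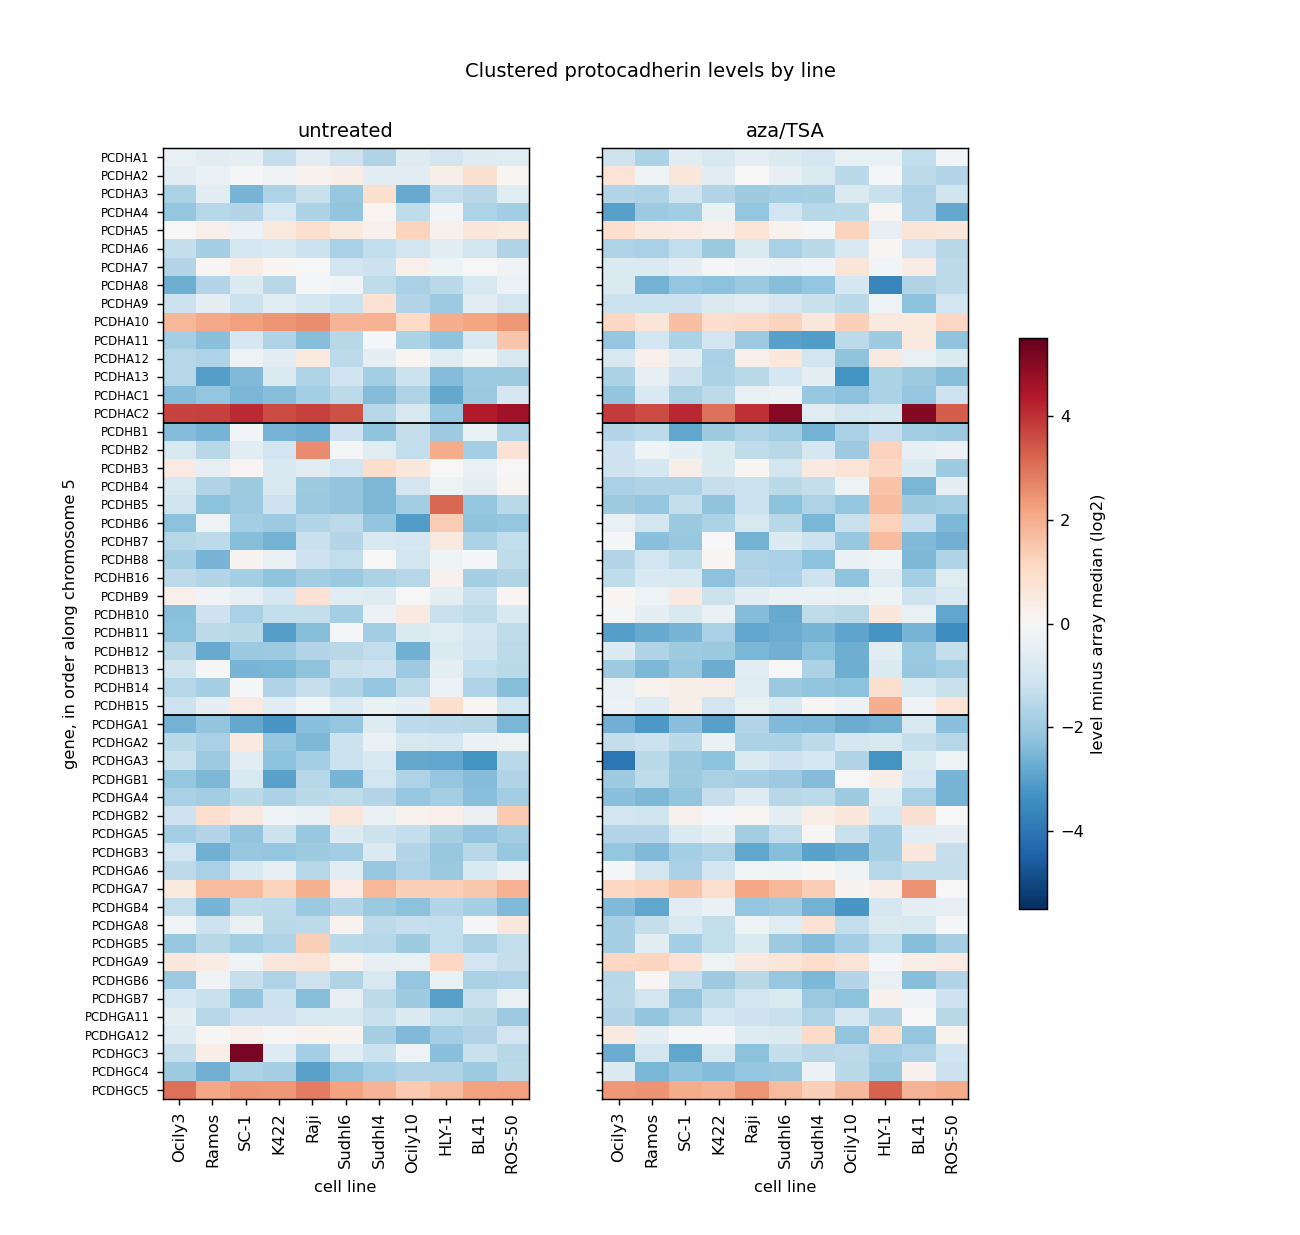
Level minus array median (log2) of the 52 clustered protocadherins, in order along chromosome 5 (alpha, beta and gamma separated by black lines), in the 11 lines untreated (left) and after aza/TSA (right). PCDHA10 and PCDHGC5 form red rows in both panels, as does PCDHGA7 except in treated ROS-50, PCDHAC2 is red in 8 lines, and HLY-1 is red across several beta cluster genes.

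The rule of at least 2-fold in at least 6 of 11 lines, which the study used to pick candidates, was applied here to the brighter element of each gene and selected 2 members upwards, CDH1 in 6 lines and PCDH20 in 7. Of the dimmer elements it also selected that of PCDH10, in 8 lines. Turned downwards it selected PCDHA10 and PCDHB11, each in 7 lines. The rule took 9.16% of all genes upwards and 7.32% downwards. Among the 6466 genes with a mean below the array median it took 315 upwards and 166 downwards, and among the 72 members of this kind 2 and 1. PCDH8 and CDH15 reached 2-fold in 5 lines each and CDH16 in 3. Untreated and treated levels overlapped for all 7 members that passed the limma test. For PCDHA10 the overlap came from the untreated Ocily10 array alone.

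Several clustered genes differed widely between lines. The beta cluster stood out in HLY-1, where 7 of its 16 genes were above the array median untreated and 9 after treatment (43.8% and 56.2%). In every other line 0 to 4 were. Of all genes 59.2% were above it in HLY-1, untreated and treated alike. The cluster thus stood out against the other lines and not against other genes. PCDHB5 was at 13.33 and 11.87 in HLY-1, while no other line exceeded 9.09 untreated or 9.02 treated. PCDHB6 was at 11.58 and 11.44 there, against at most 9.92 and 9.76, and PCDHB7 at 10.68 and 11.89, against at most 9.33 and 10.18. The 3 genes are neighbours in the cluster. Outside it, CDH18 was also highest in HLY-1, at 13.65 and 12.24, with the other lines at most 11.03 and 10.73. A level highest in 1 line by at least 1 log2 unit on both of its arrays was found for these 4 members and for no other when each gene is read from its brighter element, and for 2.73% of all genes. Of the dimmer elements that of PCDH10 met it in HLY-1, and so did that of CDH12, at 12.44 and 11.62 against at most 9.43 and 9.22 elsewhere. HLY-1 held 121 of those genes. This rule was chosen after the values were seen, and the close copies in the beta cluster may share signal.

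PCDHAC2, the last variable exon of the alpha cluster, split the lines into 2 levels. It was between 13.67 and 14.80 in 8 untreated lines, and at 8.61 in Sudhl4, 9.28 in Ocily10 and 8.11 in HLY-1. Treatment left the split in place, with 13.23 to 15.24 in the 8 lines and 9.16 to 9.51 in the 3. The brighter PCDH10 element showed the opposite order, at 12.04 to 12.81 untreated in the 3 lines and 9.90 to 11.20 in the other 8, and at 13.07 to 13.45 against 9.12 to 10.94 after treatment. The dimmer PCDH10 element did not separate the 3 lines. Untreated it was at 15.49 in HLY-1 but at 9.12 in Ocily10 and 7.82 in Sudhl4, with Ramos at 9.13. No other member separated these 3 lines from the rest on both arrays, as 1.33% of all genes did. The 75th percentile of the raw signals was 2901 to 4547 on the arrays of these 3 lines and 4310 to 15058 on those of the other 8, ranges that overlap, and its part in these line differences was not tested. PCDH19, a protocadherin on chromosome X linked to epilepsy, was between 11.75 and 12.47 on both arrays of Sudhl6, Sudhl4, Ocily10 and HLY-1. SC-1 had 11.24 untreated and 8.78 treated, and the remaining lines at most 10.04.

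**Figure D4:**
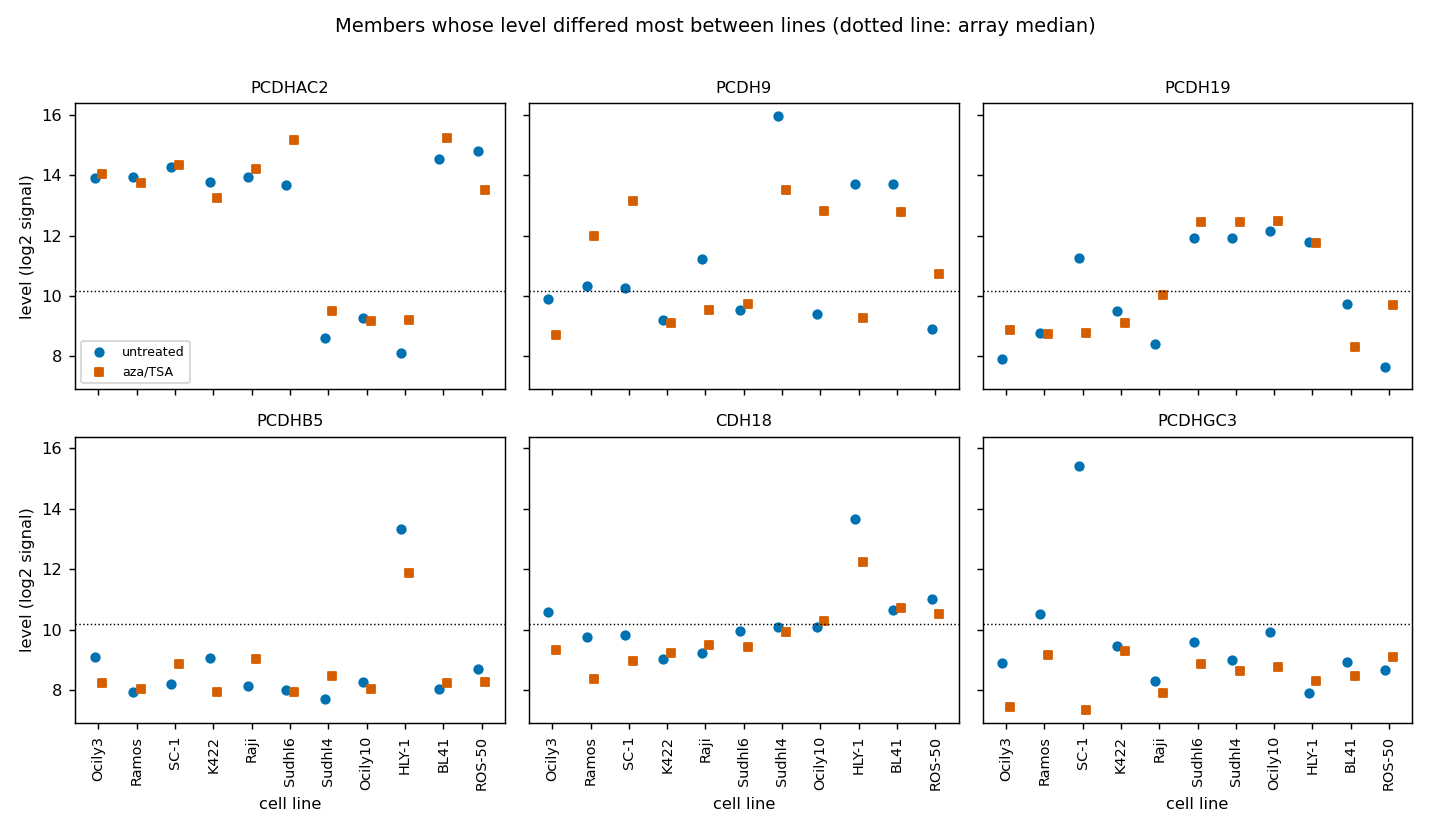
Level (log2 signal) of 6 members with large differences between lines, untreated (circles) and after aza/TSA (squares) in each cell line; the dotted line is the array median. PCDHAC2 kept its line pattern after treatment, PCDH19 stayed high in 4 lines and dropped in SC-1, PCDHB5 and CDH18 were highest in HLY-1 on both arrays, PCDH9 changed in both directions and PCDHGC3 was high on a single array.

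Within single lines the gamma cluster of BL41 had the highest share of 2-fold increases of any class and line (47.6%), with 10 of 21 genes at least 2-fold higher and 0 lower and a median difference of 0.99. The gamma medians of the other lines lay between -0.47 and 0.15. Over all genes 19.0% were at least 2-fold higher and 18.3% lower in BL41, a share not counted for dim genes alone. The gamma medians of BL41 were dim, at 8.66 untreated and 9.39 treated. They rest on 1 pair of arrays, and elements of close copies may share signal. High untreated levels were also lost in single lines, as for CDH17 in Sudhl6 (13.36 to 9.84), CDH19 in HLY-1 (11.69 to 8.25) and PCDHB2 in Raji (12.78 to 8.80), each from 1 pair of arrays. HLY-1, where PCDHB2 was at 12.23, kept 11.44.

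The lymphoma types were compared next. No member passed limma's F-test on the differences between the 4 types (smallest adjusted p 0.724, for CDH1 and PCDH20), where 0.00% of all genes did, and 6 of 83 had an unadjusted p under 0.05 (7.23%, against 7.02% of all genes). For untreated levels no member passed either, against 0.168% of all genes, and PCDHAC2 alone had an unadjusted p under 0.05 (adjusted p = 0.719), or 1.20% of the members against 7.70% of all genes. PCDH20 had mean differences of 2.81 in BL and -0.41 in FL.

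Counts in other lists are to be read against the 15.1% and 15.2% of all genes that rose and fell, or, for both directions together, the 44.9% of genes with a mean at or above the array median. Of 13 catenins and cadherin-bound adaptors 6 rose (46.2%) and none fell, with a median difference of 0.45, against -0.01 over all genes. CTNNA1 (alpha-catenin, which bridges beta-catenin and actin) rose by 2.34 ± 0.28 (SE, adjusted p = 3.5e-05) and VCL (vinculin) by 2.05 ± 0.22 (adjusted p = 1.4e-05), both in 11 of 11 lines. JUP (plakoglobin) rose by 1.41 and CTNND1 (p120-catenin) by 0.75, while CTNNB1 (beta-catenin) differed by 0.30 (adjusted p = 0.344). None of the 7 desmosomal cadherins passed, and of the 15 other cadherin superfamily genes CELSR2 rose by 0.84 and FAT4 fell by 0.75. Of 9 proteases that process cadherins 4 rose and 2 fell (44.4% and 22.2%), with FURIN, which cleaves cadherin precursors, going from 12.38 ± 1.75 (SD) to 13.88 ± 0.57. Of 11 effectors that protocadherins signal through, 2 rose and 3 fell (18.2% and 27.3%), CYFIP1 of the WAVE complex rising by 2.80. Of 4 nectins NECTIN4 fell by 1.12.

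Regulators of these genes were also measured. Of 10 repressors of CDH1 transcription, ZEB1 fell, by 1.14 ± 0.20 (SE, adjusted p = 7.4e-04) and in 11 of 11 lines, from 11.10 ± 0.74 (SD) to 9.96 ± 0.79, and none rose. SNAI1, another of them, was higher by 1.17 ± 0.48 (SE) in 9 of 11 lines but did not pass (adjusted p = 0.101). Of 18 regulators of the clustered protocadherin locus 9 fell and 1 rose (50.0% and 5.56%), where 15.2% and 15.1% of all genes did. Most of these regulators were bright, with the mean untreated level above the array median for 14 of the 18. Among genes with a mean at or above that median, 44.9% were called in either direction, which is the nearer background. CTCF, which binds the variable promoters, fell by 1.73 ± 0.15 (adjusted p = 2.8e-06). The cohesin subunits STAG2 and RAD21 fell by 2.51 and 0.98, and SETDB1, a histone methyltransferase, by 0.71, each lower in 11 of 11 lines. DNMT3B, a DNA methyltransferase, rose by 1.72 ± 0.33 (adjusted p = 0.00149), and DNMT1 fell by 0.59. Of 18 other genes near the clusters on chromosome 5, 4 rose and 4 fell (22.2% each), with a median of -0.01.

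Markers of other cell types are given beside these results, where 15.1% of all genes rose and 15.2% fell. Of 9 epithelial markers 4 rose (44.4%), namely EPCAM (by 1.46), KRT8 (1.13), KRT18 (2.47) and ELF3 (2.47), and none fell. The log2 of the summed signal of all 9 lay between 13.78 and 15.51 untreated and between 14.02 and 16.42 treated. CLDN4 had the highest mean of the 9 untreated, at 13.18. KRT19, CLDN4, CLDN7, ESRP1 and GRHL2 did not pass. Of 11 neuronal markers 3 rose (27.3%) and none fell, of 9 fibroblast markers 3 rose and 1 fell (33.3% and 11.1%), of 8 endothelial markers 1 rose (12.5%), of 10 T cell markers 1 fell and of 8 myeloid markers none passed. Of 7 B cell markers 5 fell (71.4%). CD79B fell by 2.78 and MS4A1 fell by 2.55. The part of these markers in the results for CDH1 and the protocadherins was not tested.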

How the data were processed

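Untreated and aza/TSA cultures of 11 lines were measured on the Applied Biosystems Human Genome Survey array, 22 arrays in all. The authors deposited raw signals as linear intensity and log2 values from ABarray and Bioconductor. The deposited log2 values equal quantile-normalized log2 intensity to within 5.0e-09. Images were read on the maker's chemiluminescent array analyzer. Gene symbols came from the platform annotation and were brought up to date through RefSeq (GRCh38.p14), leaving 15666 elements unnamed. No filter on dim elements was applied. limma 3.58.1 in R 4.3.3 tested each element (lmFit and eBayes, two-sided, with cell line as a block) and compared the types by an F-test, with Benjamini-Hochberg adjustment over all elements at 0.05. Precision is limited by the number of arrays.

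Both arrays of a line stem from 1 cell line and were paired on that ground. Their deviations from the group means correlated between 0.361 and 0.585, those of different lines at most 0.180, and in 11 of 11 lines the own partner correlated best.

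The members, gene lists and rules were chosen with earlier results of these data known. Named genes are the members that passed, the 6 most often above the array median untreated, 8 genes known for promoter methylation, and the largest difference without a call in each class. Genes with strong differences between lines were added after their values were seen. Alternatives were median scaling, no normalization, a floor, a mean-variance trend, only detected elements, the mean of a gene's elements, no block, other fold limits, lines in RPMI, and leaving out lines. The test was checked on simulated data. Levels of PCDH11Y are not reported here.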

Additional observations from a re-analysis of the deposited data

Results flagged for a closer look

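For PCDH10 (brighter element) all 3 DLBCL ABC lines were higher after treatment and all 3 FL lines lower, with mean differences of 0.61 and -0.66, 1.27 apart. The dimmer PCDH10 element did not show this. It was higher in all 3 FL lines (SC-1 0.97, K422 3.89, ROS-50 3.22). Of the ABC lines, Ocily3 was higher on it (1.93) and Ocily10 (-1.33) and HLY-1 (-1.80) were lower. For PCDHB14 all 3 BL lines (mean 1.15) and all 3 FL lines (mean 1.16) were higher and both DLBCL GCB lines lower (mean -0.23), 1.38 and 1.40 apart. The contrasts were singled out because every line of one type moved one way and every line of another the opposite way. PCDHB14 in Sudhl4 counted as lower at only -0.07. What share of all genes shows such contrasts was not counted, so they cannot be read as particular to the members. These pairs of types were not tested singly, and limma's F-test over the 4 types did not pass for either gene (adjusted p = 0.834 and 0.836).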

How the results depend on the processing

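All 7 calls were kept under median scaling, no normalization and a mean-variance trend. The 5 members that rose became 3 without the replicate block (CDH16 and PCDH8 lost), 2 with only detected elements (CDH1, CDH16, PCDH8 and PCDHB11 were not tested there, as too few arrays lay above the array median) and 3 to 7 on leaving out 1 line. CDH16 and PCDH20 also lost their calls with the floor (adjusted p = 0.0737 and 0.0642) and in the 9 RPMI lines (0.0850 and 0.0720). PCDH20 also lost its call without Sudhl4, Ocily10 and HLY-1 (0.193). PCDHB14 passed as higher in all 3 settings. Other clustered members gained calls too. PCDHAC1 passed as higher in the RPMI lines and without Ocily10 or ROS-50, PCDHGA5 without Sudhl6 and PCDHGA9 without HLY-1. PCDHA8 passed as lower in the RPMI lines and without Ocily3 or Ocily10. The 2 that fell became 1 with a floor at the 25th percentile, 1 with only detected elements, and 1 when Sudhl4, Ocily10 and HLY-1 were left out, PCDHB11 being the one without a call each time, and were 2 to 3 on leaving out 1 line. The 2-fold rule gave 1 higher and 1 lower with the floor, 9 and 4 at 1.5-fold, 0 and 0 at 3-fold, and 1 to 2 higher on leaving out 1 line. PCDH10 turned to 0.73 (adjusted p = 0.0303) with the mean of its 2 elements, and CDH24 gained a call as lower with the mean of its own 2. In Sudhl4, Ocily10 and HLY-1 alone, only 3 pairs, the 7 differences kept their direction (CDH1 1.69, PCDH20 2.07, PCDH8 0.59, CDH15 0.90, CDH16 1.39, PCDHB11 -1.79, PCDHA10 -0.86), and their p-values say little. Over the whole array 3674 elements rose and 4064 fell, against 2059 and 2136 without the block. Median scaling gave 2603 and 5637, so that 31.6% of calls were increases and not 47.5%, and moved the median of all genes from -0.01 to -0.14 and of the members from -0.05 to -0.12. Dim signals limit most members, and the cause of each lost call was not tested.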
